A study of Homo sapiens with 6 samples.

Results

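The comparison described here sets all knockdown arrays of this study, as 1 side, against its control arrays. U2OS, a human osteosarcoma cell line, received siRNA against luciferase (the control, 2 arrays), against H3.Y (2 arrays) or against both H3.X and H3.Y (2 arrays, called the combined knockdown), so that 4 knockdown arrays stood against 2 luciferase arrays, which are all 6 arrays of the series. All groups were transfected 2 times with siRNA and Oligofectamine and were harvested 4 days later. The luciferase cells thus share the transfection and the presence of an siRNA with the knockdown cells, and the labels do not say whether 1 siRNA or several were used for the combined knockdown, nor whether different siRNAs were used for H3.Y in its 2 groups. Total RNA was measured on Affymetrix arrays, and each probe set has a deposited log2 value.

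Members were the probe sets for which all 4 knockdown arrays lay above, or all 4 lay below, both luciferase arrays. Of 33297 probe sets, 2937 lay above (8.82%) and 3106 lay below (9.33%), 6043 in all (18.1%). They named 3895 of 18417 genes, 1879 with a probe set above, 2019 with one below and 3 with both. The rule uses the measured values, so these counts are a description and carry no test. An exact permutation test of 4 arrays against 2 has 15 splits and cannot go below p = 0.067.

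Histone H3 variants replace the canonical H3 in nucleosomes and can change how chromatin is read and copied. H3.X and H3.Y are primate-specific variants whose RNA is scarce in most tissues, and U2OS cells are among the lines in which they have been studied. Canonical histones are made in S phase together with the DNA replication machinery, and the genes of mitosis peak later in the cycle, so that the RNA of both groups depends on how many cells in a culture divide. In these bulk samples, fewer cells of a kind and less RNA per cell cannot be told apart.

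No probe set was named for H3Y1 or H3Y2, the genes of H3.Y and H3.X (0 of 19460 with 1 gene symbol), so the knockdown itself was not analysed here. Array medians were 5.1 throughout. Replicate 1 minus replicate 2 had an SD over all probe sets of 0.419 in the H3.Y group, 0.333 in the control and 0.304 in the combined knockdown. The labels call the arrays biological replicates without saying how cultures were kept apart, so every p-value here reflects array-to-array spread, which may be technical. Of markers of other lineages, 0 of 12 epithelial, 0 of 9 neural and germ line and 1 of 9 blood cell genes lay on one side of luciferase in all 4 knockdown arrays. That gene was CD34, at 4.41 to 4.45 on the luciferase arrays and 4.14 to 4.37 on the knockdown arrays. Of all named genes 20.8% lay on one side, and lists this small allow no reading against that share. With luciferase replicate 1 left out, 2 epithelial, 3 neural and germ line and 4 blood cell genes lay above, and 0, 0 and 1 below. Of all probe sets 23.1% and 19.3% did. With luciferase replicate 2 left out, these numbers were 0, 1 and 1 above and 2, 1 and 3 below (17.9% and 19.5% of all probe sets). VIM, a mesenchymal filament gene, lay at 10.69 to 10.95 on all arrays and the leukocyte gene PTPRC at 1.89 to 2.29. Of 13 mesenchymal and osteosarcoma genes 1 lay above luciferase and 0 below, where 10.0% and 10.8% of all named genes did. With luciferase replicate 1 left out 6 of the 13 lay above and 0 below. With luciferase replicate 2 left out 1 lay above and 5 below, so the counts depended on the control array. In limma 4 of the 13 were higher and 0 lower in the combined knockdown than after H3.Y siRNA, where 4.05% and 2.68% of all genes were. COL1A1, a collagen gene of that list, lay at 9.06 and 8.93 in luciferase cells. It lay at 8.33 and 8.62 after H3.Y siRNA and 10.73 and 10.42 in the combined knockdown. The osteoblast factor RUNX2 lay at 5.05 to 5.89, and its level did not separate the groups. The summed level of the 12 epithelial genes was 71.5 to 72.7 on the luciferase arrays and 68.4 to 77 on the knockdown arrays. EPCAM, an epithelial adhesion protein, lay at 4.97 and 5.14 in luciferase cells, 4.65 and 5.05 after H3.Y siRNA and 7.41 and 7.21 in the combined knockdown. Its second probe set lay at 4.96 and 5.15, then 3.34 and 4.34, then 7.69 and 7.88. In limma 3 of the 12 epithelial genes were higher and 0 lower in the combined knockdown than after H3.Y siRNA. The part of other cell types in the results was not tested.

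Genes of DNA replication, mitosis and canonical histones lay mostly below luciferase. Of 51 measured genes of DNA replication and G1/S, 41 had all 4 knockdown arrays below luciferase and 1 above, where 10.8% of all named genes lay below and 10.0% above. Of 69 genes of G2/M and mitosis, 53 lay below and 0 above, and of 50 replication-dependent histone genes 26 lay below and 2 above. The median pooled difference, which is the mean of the 4 knockdown arrays minus the mean of the 2 luciferase arrays, was log2 -0.49 for the replication list, -0.52 for the mitosis list and -0.50 for the histone list, against 0.02 over all named genes. With 1 probe set for each of the 18417 genes, 1847 lay above and 1984 below (20.8% on either side), and 13 had passed limma in the test over all probe sets (0.0706%), 7 higher (0.0380%) and 6 lower (0.0326%). These lists were compiled with earlier results of these data known, so the counts are descriptive.

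Promoter sequence is shown for some named genes of the mitosis and histone lists, because genes of mitosis and histone genes share known promoter elements. The genes were picked by hand, and none of the replication list is shown. The sequences are the 100 bases before the RefSeq start of each gene (GRCh38.p14), 5′ to 3′ on the gene's own strand, with capitals marking each TTTGAA (the core of the cell cycle genes homology region, CHR) and each CCAAT box, on either strand. HMMR lies on the + strand at chr5:163460532-163460631, MAD2L1 on the - strand at chr4:120066849-120066948, NSL1 on the - strand at chr1:212791778-212791877, H3C1 on the + strand at chr6:26020351-26020450 and H2AC15 on the - strand at chr6:27838376-27838475.
HMMR: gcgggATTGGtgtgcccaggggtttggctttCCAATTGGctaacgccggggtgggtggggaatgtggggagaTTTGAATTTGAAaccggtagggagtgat
MAD2L1: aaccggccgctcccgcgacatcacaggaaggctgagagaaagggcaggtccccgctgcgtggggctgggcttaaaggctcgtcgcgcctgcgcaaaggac
NSL1: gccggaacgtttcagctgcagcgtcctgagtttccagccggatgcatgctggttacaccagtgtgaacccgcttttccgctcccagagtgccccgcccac
H3C1: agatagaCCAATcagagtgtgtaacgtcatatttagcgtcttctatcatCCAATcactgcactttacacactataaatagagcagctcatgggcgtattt
H2AC15: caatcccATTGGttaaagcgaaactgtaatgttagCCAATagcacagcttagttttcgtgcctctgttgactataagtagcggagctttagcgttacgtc

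HMMR carried both elements in this window, and its overlapping capitals join neighbouring matches. H3C1 and H2AC15 each carried 2 CCAAT boxes, and MAD2L1 and NSL1 carried neither element within these 100 bases. Over the 250 bases before the start, TTTGAA on either strand stood in 24 of 58 promoters of the mitosis list (41.4%), 13 of 45 of the histone list (28.9%) and 1 of 44 of the replication list (2.27%), against 13.6% of the 27305 genes with a promoter in the table. CCAAT stood in 40 of 58 (69.0%), 40 of 45 (88.9%) and 25 of 44 (56.8%), against 33.0%. These shares cover whole measured lists with a promoter entry, 84.1%, 90% and 86.3% of each, and use the first start listed per gene. Among all genes below luciferase, of which 82% had a promoter entry, TTTGAA stood in 12.4% and CCAAT in 38.4%. The shares were 8.67% and 34.8% among all genes above, and 10.6% and 34.4% among all genes measured here. In all 4 motifs were searched, each on its own and on both strands. The E-box CACGTG stood in 4 of 18 FOXO-responsive promoters (22.2%), against 6.49% of all promoters and 7.86% of those of genes measured here. The forkhead motif TGTTTAC stood in 2 of 18 (11.1%), against 2.98% and 2.07%. The E-box share was 13.6% in the replication list, 10.3% in the mitosis list and 0.00% in the histone list. It was 10.5% among all genes above and 7.69% among all genes below. A match is a description of the letters and shows no binding.

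Pooled over both knockdowns, 30 of 33297 probe sets passed limma at an adjusted p under 0.05 (0.0901%), 15 higher (0.0450%) and 15 lower (0.0450%). Their adjusted p lay between 0.045 and 0.049, all close to the threshold, their folds between 2.09 and 4.98, and 28 of the 30 held distinct values. Of the 30, 13 had no single gene symbol, among them those at both ends of the fold range. The repeated values belonged to rises without a single symbol (log2 2.16), close to that of the chemokine gene CCL3 (2.26). Of the 30, 23 had all 4 knockdown arrays on one side, 11 above and 12 below. The other 7 overlapped, with 1 knockdown near luciferase. In all, 4390 probe sets had an unadjusted p under 0.05, and 343 an adjusted p under 0.10.

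These calls rested on the set of arrays. Without luciferase replicate 1 or 2, combined knockdown replicate 1 or 2, or H3.Y replicate 1, limma called 0 probe sets, at lowest adjusted p of 0.33, 0.343, 0.212, 0.188 and 0.077, while 3306, 2564, 2938, 3464 and 5035 had an unadjusted p under 0.05. Without H3.Y replicate 2 it called 237, of which 30 were the same probe sets. With 1 mean for all 4 knockdown arrays it called 0 as well, at a lowest adjusted p of 0.277, with 2639 at an unadjusted p under 0.05. With the replicate number as a block it called 0 (lowest adjusted p 0.0576, 5185 unadjusted), and with each array centred on its median 0 (lowest adjusted p 0.05, 4306 unadjusted). Among the genes below, "rose" and "fell" are used where the 6-array fit passed.

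FBXO32, the substrate receptor of a ubiquitin ligase known from muscle wasting and as a target of FOXO factors, had the widest gap of the genes named here on the upper side. It lay at 5.07 and 5.41 on the luciferase arrays, 7.56 and 6.93 after H3.Y siRNA and 7.48 and 7.64 in the combined knockdown. The lowest knockdown array was 1.52 above the highest luciferase array. FBXO32 rose by log2 2.16 ± 0.21 (SE, n = 4 and 2 arrays; 4.48-fold, limma adjusted p = 0.045), and both knockdowns gave similar values, 2.01 after H3.Y siRNA and 2.32 in the combined knockdown. The difference between them was 0.32 ± 0.24, with adjusted p = 0.57.

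SPRY2, a feedback inhibitor of growth factor signalling to ERK, lay at 6.52 and 6.51 in luciferase cells, 7.38 and 7.50 after H3.Y siRNA and 8.04 and 7.88 in the combined knockdown. It rose by log2 1.18 ± 0.12 (limma adjusted p = 0.047). All 4 knockdown arrays stood at least 0.86 above luciferase. PTCHD4, a membrane protein with a patched domain, lay at 4.50 and 4.48 against 5.30, 5.18, 6.19 and 6.12, and rose by 1.20 ± 0.11. Its second probe set gave 0.50 ± 0.14 (limma adjusted p = 0.22), with all 4 knockdown arrays above. GULP1, an adaptor protein of the engulfment of dying cells, lay at 5.32 and 5.68 against 6.37, 6.23, 7.49 and 7.54, and rose by 1.41 ± 0.14. At these probe sets of PTCHD4 and GULP1 the combined knockdown lay farther from luciferase than H3.Y siRNA, by 0.92 ± 0.13 and 1.22 ± 0.16 (limma adjusted p = 0.019 and 0.017 between the knockdowns). The second PTCHD4 probe set gave 0.15 ± 0.17 between the knockdowns (adjusted p = 0.72).

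CCL3, an inflammatory chemokine, showed the opposite order. It lay at 7.41 and 7.45 in luciferase cells, 11.53 and 10.79 after H3.Y siRNA and 8.14 and 8.29 in the combined knockdown. Its pooled rise of log2 2.26 ± 0.21 was made of 3.73 and 0.78 in the 2 knockdowns, which differed by -2.95 ± 0.24 (limma adjusted p = 0.0058). CCL3 has near-identical gene copies that its probe set may also read. IGKC, the symbol of the immunoglobulin kappa constant region, was attached to 13 probe sets, of which 6 lay above luciferase and 1 below. Its 2 called probe sets rose by 1.59 ± 0.15 and 1.57 ± 0.15, the first from 5.98 and 6.40 to 7.45, 7.32, 8.23 and 8.14. With 13 probe sets that do not move together, the transcript read by them is uncertain.

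**Figure D1:**
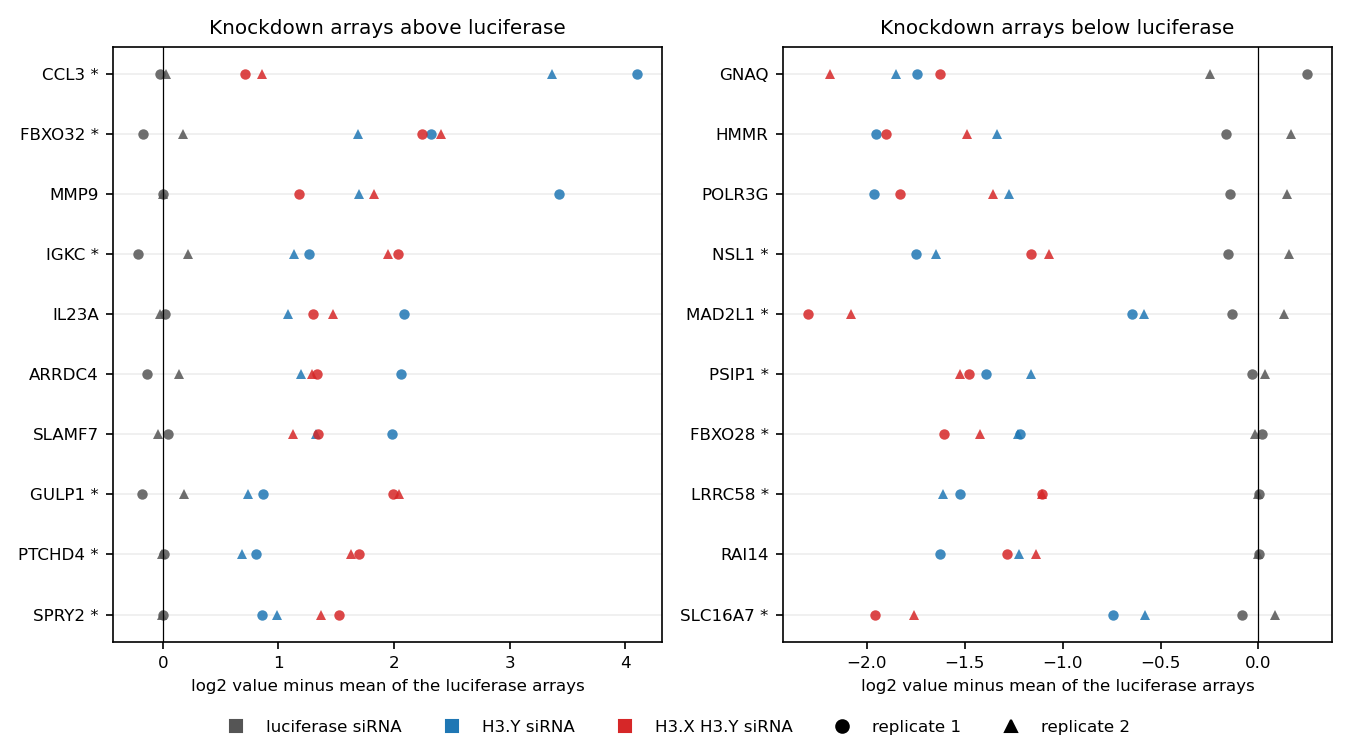
Each point is 1 array, plotted as its log2 value minus the mean of the luciferase arrays, for the named genes with the largest pooled change or the largest gap; colours give the siRNA, shapes the replicate, and an asterisk marks genes with a limma adjusted p under 0.05. No knockdown array reaches a luciferase array for these genes, and the distance between blue and red points differs from gene to gene, as for HMMR (-0.05), GULP1 (1.22) and CCL3 (-2.95, combined knockdown minus H3.Y siRNA).

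Among the falls, the smallest difference between the knockdowns among the genes named here was that of PSIP1 (-0.23 ± 0.14), a chromatin-bound coactivator that binds methylated H3. It lay at 5.74 and 5.81 in luciferase cells, 4.38 and 4.61 after H3.Y siRNA and 4.29 and 4.25 in the combined knockdown. PSIP1 fell by 1.39 ± 0.12 on the log2 scale (limma adjusted p = 0.045), and its second probe set gave -1.12, with all 4 knockdown arrays below luciferase there too (limma adjusted p = 0.075). At that probe set the combined knockdown lay lower than H3.Y siRNA by -1.01 ± 0.19 (adjusted p = 0.040). FBXO28, an F-box protein of a ubiquitin ligase, fell from 8.56 and 8.53 to 7.33, 7.32, 6.94 and 7.12. LRRC58, a leucine-rich repeat protein, fell from 7.85 and 7.84 to 6.32, 6.23, 6.74 and 6.74. The pooled differences were log2 -1.37 ± 0.11 for FBXO28 and -1.34 ± 0.11 for LRRC58. No knockdown array of either gene came near the luciferase arrays, with gaps of 1.20 and 1.10.

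Both called genes of the mitosis list belong to the kinetochore or its checkpoint. NSL1, a subunit of the kinetochore complex MIS12, lay at 8.27 and 8.58 in luciferase cells, 6.67 and 6.78 after H3.Y siRNA and 7.26 and 7.35 in the combined knockdown. It fell by 1.41 ± 0.13 on the log2 scale. MAD2L1, the spindle checkpoint protein, lay at 8.54 and 8.80 against 8.02, 8.08, 6.37 and 6.59, and fell by 1.40 ± 0.14. The order of the knockdowns differed between these genes, with NSL1 lower after H3.Y siRNA (0.58 ± 0.15 between the knockdowns, limma adjusted p = 0.098) and MAD2L1 lower in the combined knockdown (-1.57 ± 0.16, adjusted p = 0.0082). SLC16A7, a monocarboxylate transporter, fell by 1.26 ± 0.13 from 6.73 and 6.89, to 6.07 and 6.23 after H3.Y siRNA and 4.85 and 5.05 in the combined knockdown.

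Genes with wide gaps also occurred without a call. On the lower side GNAQ, the alpha subunit of a heterotrimeric G protein, had the widest gap of the named genes at 1.38. It lay at 8.37 and 7.88 in luciferase cells, 6.38 and 6.27 after H3.Y siRNA and 6.50 and 5.94 in the combined knockdown (log2 -1.85 ± 0.21, limma adjusted p = 0.054), and its second probe set gave -1.31. HMMR, a hyaluronan receptor that also acts at the mitotic spindle, lay at 7.65 and 7.98 against 5.86, 6.48, 5.91 and 6.32 (-1.67 ± 0.22, adjusted p = 0.062). The 2 knockdowns differed by -0.11 for GNAQ and -0.05 for HMMR. POLR3G, a subunit of RNA polymerase III, gave -1.61 ± 0.24 and the actin-associated protein RAI14 -1.32 ± 0.15, with gaps of 1.13 and 1.14. On the upper side the gelatinase MMP9 lay at 6.81 and 6.81 in luciferase cells and at 10.23, 8.51, 7.98 and 8.64 in knockdown cells. Its pooled difference was 2.03 ± 0.46 (adjusted p = 0.15), and H3.Y replicate 1 stood far above the other knockdown arrays. SLAMF7, a surface receptor of immune cells, gave 1.44 ± 0.20, IL23A, a subunit of interleukin 23, 1.48 ± 0.27, and the alpha-arrestin ARRDC4 1.47 ± 0.24, with adjusted p between 0.064 and 0.10.

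Most members moved little. The median pooled difference was log2 0.32 on the upper side (1.25-fold) and -0.37 on the lower (1.30-fold), with 105 and 143 probe sets at 2-fold or more. A gap of 0.5 or more was reached by 104 probe sets above and 138 below, and a gap of 1 or more by 6 and 13. At the edge of the rule, ZNF566 was just inside, with its lowest knockdown array and its highest luciferase array both at 5.71, and MEIS2 just outside, with both at 4.80. On the lower side RALGAPB was just inside, with both at 8.20, and KIF2A just outside, with both at 8.53. Members below luciferase were brighter, with a median level of 6.86, than those above, at 5.78, and the median of all probe sets was 5.11. Probe sets with a level under 4 made up 16.7% of members below, 29.3% of members above and 33.7% of all.

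The 4 knockdown arrays did not define the members equally. On the upper side H3.Y replicate 2 was the array nearest to luciferase in 962 of 2937 probe sets and H3.Y replicate 1 the farthest in 1102. On the lower side the same arrays were nearest in 945 and farthest in 1015 of 3106. H3.Y siRNA and the combined knockdown were similar in size over the members, with median differences from luciferase of 0.33 and 0.29 above, and -0.35 and -0.36 below. Both comparisons share the luciferase arrays, and the rule asks for the same side in both. Of 769 genes with several probe sets, 222 had a member among them, 80 of these had every probe set on the same side, and 3 (IGKC, MYO15B and WNK1) had probe sets on both sides.

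**Figure D2:**
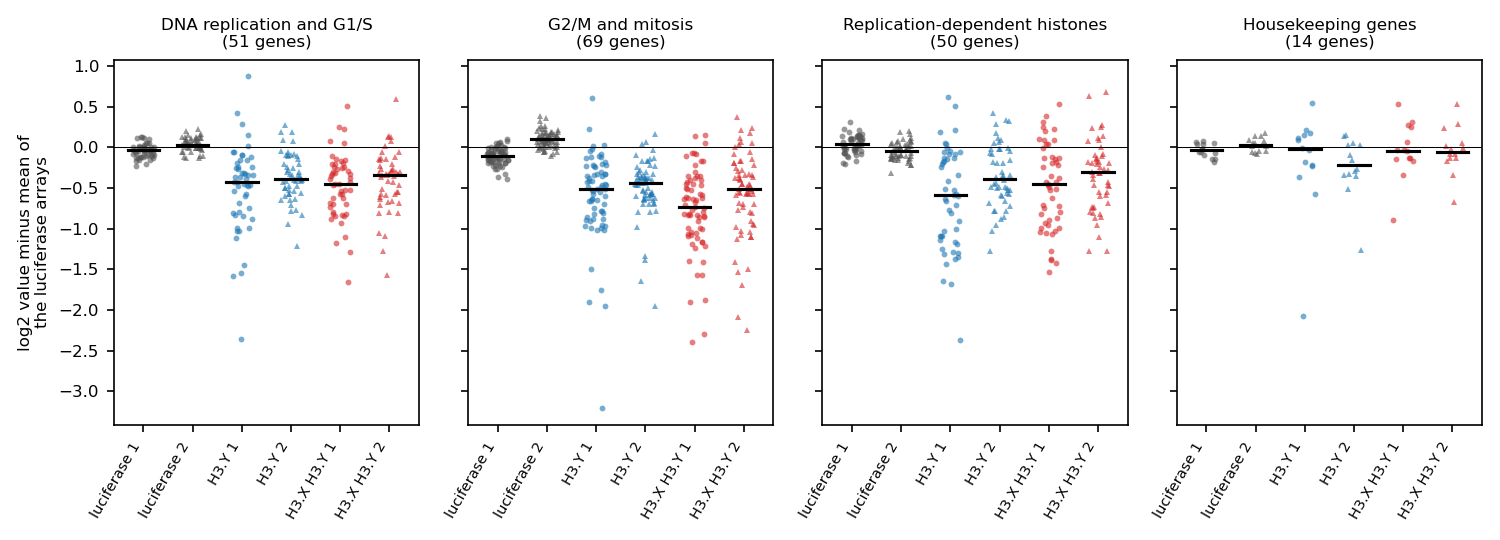
Each point is 1 gene on 1 array, plotted as its log2 value minus the mean of the luciferase arrays, and black bars are medians over the genes of each list. In the replication, mitosis and histone lists the medians of all 4 knockdown arrays lie between -0.73 and -0.31, while those of 14 housekeeping genes lie between -0.21 and -0.02.

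Within the replication list, 0 genes passed over all probe sets in the 6-array fit. The smallest p belonged to GINS4, a subunit of the replicative helicase, and RRM1, the large subunit of ribonucleotide reductase. GINS4 lay at 8.02 and 8.01 in luciferase cells, 7.54 and 7.71 after H3.Y siRNA and 6.36 and 6.45 in the combined knockdown, a pooled difference of log2 -1.0 ± 0.12 (limma adjusted p = 0.054). RRM1 lay at 9.36 and 9.42 against 9.06, 8.97, 8.29 and 8.34 (-0.73 ± 0.11, adjusted p = 0.078). In both genes the combined knockdown lay lower than H3.Y siRNA, by -1.23 ± 0.13 and -0.70 ± 0.13 (adjusted p = 0.011 and 0.036). Per array, the median of the list lay -0.42 and -0.39 from the luciferase mean after H3.Y siRNA and -0.45 and -0.33 in the combined knockdown, so that the list as a whole did not show the order seen in these genes. CCNE1, which encodes cyclin E1, was the 1 gene of the list above luciferase (0.54); it was picked out after its value was seen.

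In the mitosis list the per-array medians were -0.51 and -0.44 after H3.Y siRNA and -0.73 and -0.51 in the combined knockdown, and the luciferase arrays themselves lay at -0.10 and 0.10. All 69 genes had a pooled difference below 0, and 2 fell in the 6-array fit. Without 1 array at a time, between 53 and 60 of the 69 lay below. In the histone list, 43 of 50 genes had a negative pooled difference and 0 passed. H3C1, a canonical H3 gene, lay at 7.97 and 7.76 in luciferase cells, 6.22 and 6.59 after H3.Y siRNA and 7.16 and 7.39 in the combined knockdown (log2 -1.03 ± 0.16, limma adjusted p = 0.080). H2AC15, a canonical H2A gene, lay at 6.52 and 6.70 against 5.41, 5.95, 5.18 and 5.33 (-1.14 ± 0.18, adjusted p = 0.080). Canonical histone genes are near-identical within a class, so probe sets may read several. The 2 histone genes above luciferase were H2BC21 and H2BC12, at 0.52 and 0.45; they were picked out after their values were seen.

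H3 variant and chaperone genes lay below luciferase more often than above. Of 26 measured, 11 lay below (42.3%) and 3 above (11.5%), where 10.8% and 10.0% of all named genes did. Their median was log2 -0.14, with 0 calls. CHAF1B, a subunit of the chromatin assembly factor CAF-1 that loads H3 during replication, gave -0.72 ± 0.11 and SSRP1, a subunit of the FACT complex, -0.57 ± 0.11 (limma adjusted p = 0.084 and 0.11). The second probe set of SSRP1 gave -0.09 and overlapped with luciferase. Among 27 G1 regulators, 8 lay below and 4 above (median -0.04; 7 above without H3.Y replicate 1 or either luciferase array). RB1, the retinoblastoma protein, lay at 7.83 and 8.02 against 7.34, 7.12, 6.66 and 6.74 (-0.96 ± 0.13, adjusted p = 0.062). CDK6, a kinase that phosphorylates RB1, gave -0.71 ± 0.11 (adjusted p = 0.085).

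**Figure D3:**
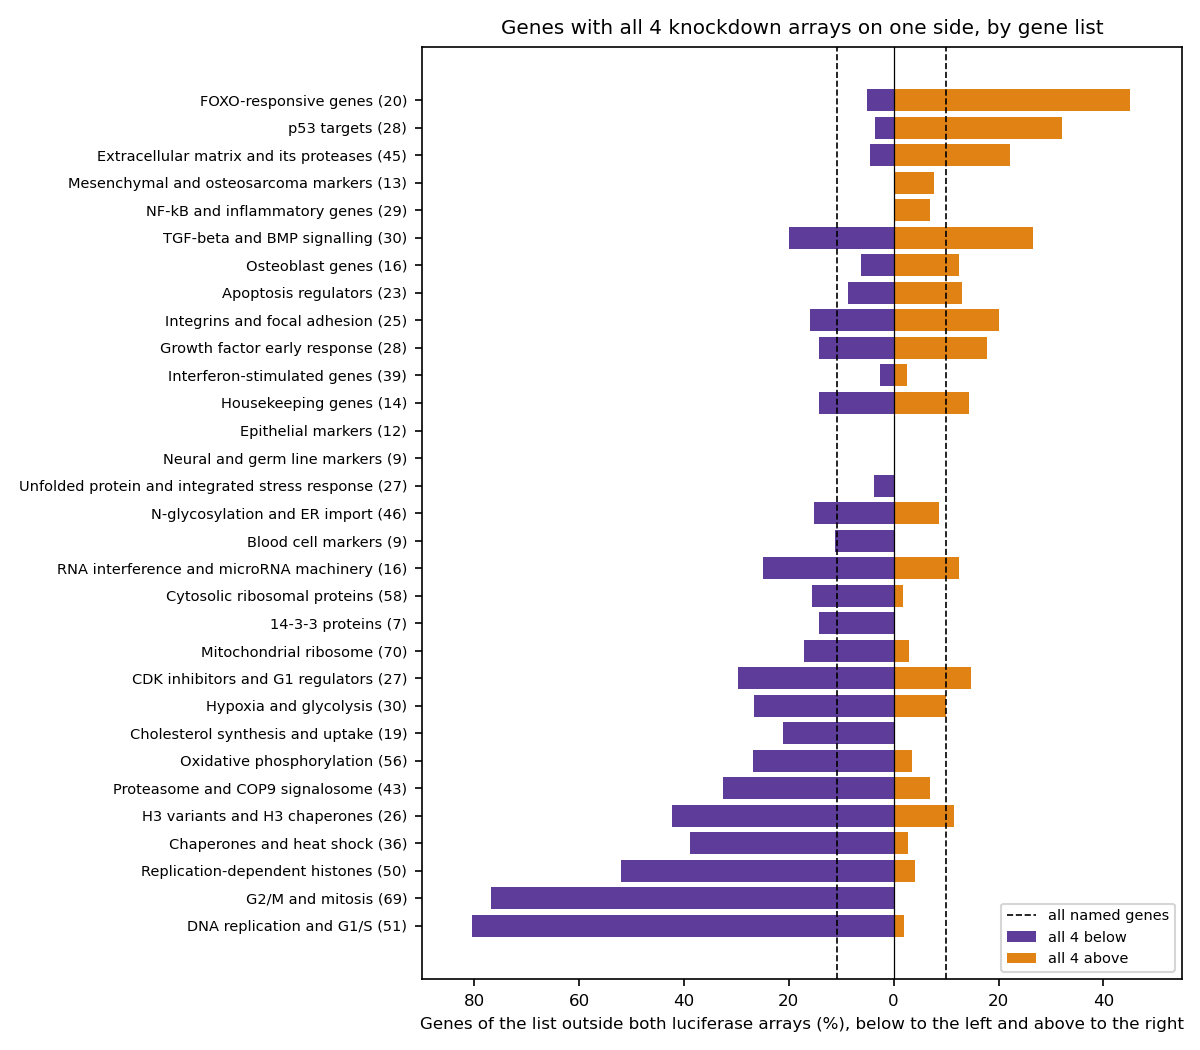
Bars give the share of measured genes of each list (number in brackets) with all 4 knockdown arrays below (left) or above (right) both luciferase arrays, and dashed lines the shares over all named genes, 10.8% and 10.0%. The replication list (80.4% below) and the mitosis list (76.8% below) reach farthest to the left, and the FOXO-responsive list (45% above) farthest to the right.

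On the upper side, FOXO-responsive genes, which respond to low insulin and growth factor signalling, had 9 of 20 genes above and 1 below (median log2 0.38), and FBXO32 was the 1 that rose. Per array the median of this list was 0.40 and 0.18 after H3.Y siRNA and 0.50 and 0.40 in the combined knockdown. BNIP3, a mitochondrial receptor for autophagy, was the 1 gene of the list below luciferase, at 7.61 and 7.80 against 7.14, 7.16, 6.30 and 6.47. Of 28 p53 targets, 9 lay above and 1 below (median 0.31), with 0 calls. Of all named genes 10.0% lay above and 10.8% below. Without luciferase replicate 1, 22 of the 28 p53 targets lay above and 1 below, where 23.1% and 19.3% of all probe sets did. Without luciferase replicate 2, 10 lay above and 3 below, where 17.9% and 19.5% of all probe sets did. With 1 knockdown array left out, 9 to 13 lay above and 1 below. Leaving out an array loosens the rule for every gene: without 1 array at a time, 11.1% to 23.1% of all probe sets lay above and 11.3% to 19.5% below. The CDK inhibitor CDKN1A lay at 8.02 and 7.70 against 8.39, 8.27, 8.98 and 8.80 (0.75 ± 0.14, limma adjusted p = 0.11). PLK2, a p53-induced kinase, gave 0.96 ± 0.16 and did not meet the rule, since H3.Y replicate 2 at 8.94 lay below luciferase replicate 1 at 9.0.

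Matrix genes met the rule in part and differed between the knockdowns in part. Of all named genes 10.0% lay above luciferase and 10.8% below. Of 45 matrix genes and their proteases, 10 lay above and 2 below (18 above without luciferase replicate 1), while 16 were higher and 2 lower in the combined knockdown than after H3.Y siRNA in limma, where 4.05% and 2.68% of all genes were (6.73% in all). LUM, the matrix proteoglycan lumican, was called in the pooled comparison (log2 1.94 ± 0.17) though its arrays overlapped, at 2.39 and 1.95 in luciferase cells, 1.85 and 1.72 after H3.Y siRNA and 6.29 and 6.59 in the combined knockdown. On the luciferase and H3.Y arrays LUM lay as low as PTPRC, and no detection call was used here, so the size of its difference is uncertain. The mean of the 4 arrays stood for a difference in 1 knockdown. FN1, fibronectin, missed the rule by one array, since H3.Y replicate 1 and luciferase replicate 1 both lay at 9.40 (1.42 ± 0.25, adjusted p = 0.10). Among 25 integrin and focal adhesion genes, 5 lay above and 4 below, and 5 were higher and 2 lower in the combined knockdown than after H3.Y siRNA. ITGB3, the integrin beta 3 subunit, lay at 6.10 and 5.88 against 7.31, 6.65, 9.83 and 9.18 (2.25 ± 0.25, adjusted p = 0.054), and the adaptor paxillin (PXN) gave 0.78 ± 0.13 on 1 probe set and 0.20 on the other.

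TGF-beta family genes lay on both sides, with 8 of 30 above (26.7%) and 6 below (20%), where 10.0% and 10.8% of all genes were. INHBA, which encodes the activin A subunit, lay at 7.46 and 7.25 against 8.72, 8.03, 9.95 and 10.07 (log2 1.84 ± 0.21, limma adjusted p = 0.054). TGFBR3, the co-receptor betaglycan, lay at 6.89 and 6.81 against 5.43, 5.78, 6.34 and 6.46 (-0.85 ± 0.14, adjusted p = 0.085). Of 16 osteoblast genes 2 lay above (12.5%) and 1 below (6.25%), near the shares over all genes (6 above without luciferase replicate 1, and 4 without replicate 2 or without combined knockdown replicate 1). BMP2, a bone morphogenetic protein, gave 0.87 ± 0.19, and the decoy receptor osteoprotegerin (TNFRSF11B) gave 1.27 ± 0.26 with overlapping arrays, from 5.36 and 5.63 after H3.Y siRNA to 9.14 and 10.00 in the combined knockdown.

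Lists of chaperones, protein turnover, respiration and ribosomes had more genes below than above, by small amounts, where 10.8% of all genes lay below. Of 36 chaperone genes 14 lay below and 1 above (median log2 -0.25), and 22 below without luciferase replicate 1. Of 43 proteasome and COP9 signalosome genes 14 lay below and 3 above (-0.19). Without H3.Y replicate 1, 23 of these lay below, and after a repeated quantile normalization 11. Of 56 oxidative phosphorylation genes 15 lay below and 2 above (-0.13). Without luciferase replicate 2, 26 of these lay below, and after a repeated quantile normalization 10. Each of these lists had 0 calls. HSPE1, the mitochondrial co-chaperonin, lay at 6.96 and 6.94 against 6.71, 6.67, 5.63 and 5.63 (-0.79 ± 0.11, limma adjusted p = 0.063). TCP1, a subunit of the cytosolic chaperonin, gave -0.54 ± 0.11. PSMA5, a proteasome core subunit, gave -1.02 ± 0.16, and NDUFA5 and NDUFB6, subunits of respiratory complex I, -0.98 ± 0.19 and -0.69 ± 0.13. Of 70 mitochondrial ribosome genes 12 lay below and 2 above (17.1% below). The number below was 30 without luciferase replicate 2, 20 without replicate 1 and 21 without H3.Y replicate 1. It was 8 after a repeated quantile normalization and 9 with each array centred on its median. Per array the median of this list was 0.02 and -0.02 after H3.Y siRNA and -0.18 and -0.16 in the combined knockdown. MRPL42 gave the largest difference of that list named here, from 8.33 and 8.51 to 7.33, 7.59, 6.09 and 6.61 (-1.51 ± 0.18, adjusted p = 0.055), and MRPL35 gave -1.22 ± 0.16. Of 58 cytosolic ribosomal protein genes 9 lay below (15.5%) and 1 above (16, 17 and 19 below without H3.Y replicate 1, luciferase replicate 1 and luciferase replicate 2; 2 below after a repeated quantile normalization), with RPS24 at -0.48 and RPL17 at -0.53.

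In the secretory pathway 7 of 46 genes of N-glycosylation and ER import lay below (15.2%) and 4 above (8.70%), near the 10.8% and 10.0% of all genes (12 below without H3.Y replicate 1; 12 above without H3.Y replicate 2; 9 and 7 above without luciferase replicates 2 and 1). SRP9, part of the particle that brings nascent secretory proteins to the ER, was called (log2 -1.28 ± 0.12) with overlapping arrays, at 9.14 and 9.31 in luciferase cells, 9.45 and 9.29 after H3.Y siRNA and 6.53 and 6.52 in the combined knockdown. Cholesterol genes had 4 of 19 below and 0 above, among them lanosterol synthase (LSS) at -0.84 ± 0.17 and FDPS at -0.59 ± 0.13, and 1 of 27 stress response genes lay below, the ER chaperone HSPA5 (-0.35 ± 0.12), and 0 above. Without luciferase replicate 1, 7 cholesterol genes and 4 stress response genes lay below, 7 cholesterol genes also without combined knockdown replicate 2, and 6 and 4 stress response genes lay above without H3.Y replicate 2 and luciferase replicate 2. SEL1L, of ER-associated degradation, gave 0.49 ± 0.15 with overlapping arrays. Of 30 hypoxia and glycolysis genes 8 lay below and 3 above (5 above without luciferase replicate 2), with NDRG1 at 0.70 ± 0.18. Growth factor response genes had 5 of 28 above and 4 below (9 below without luciferase replicate 2), with SPRY2 as the 1 that rose.

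Inflammatory and interferon genes seldom met the rule. Of all named genes 10.0% lay above and 10.8% below. In limma 4.05% of them were higher and 2.68% lower in the combined knockdown than after H3.Y siRNA. Without luciferase replicate 1 or 2, 23.1% or 17.9% of all probe sets lay above and 19.3% or 19.5% below. Of 29 NF-kB and inflammatory genes 2 lay above and 0 below (10 and 6 above without luciferase replicates 1 and 2, 7 without H3.Y replicate 2, 5 without combined knockdown replicate 1), and CCL3 was the 1 that rose. Of 39 interferon-stimulated genes 1 lay above and 1 below (9 and 6 above without luciferase replicates 2 and 1, 4 without H3.Y replicate 1), while 11 were higher and 0 lower in the combined knockdown than after H3.Y siRNA. GBP2, an interferon-induced GTPase, gave log2 0.51 ± 0.12 and TRIM22 0.62 ± 0.15, both with H3.Y arrays inside the luciferase range. The second GBP2 probe set gave 0.41 ± 0.19. There H3.Y replicate 2, at 3.80, lay above both luciferase arrays, and the knockdowns differed by 0.46 ± 0.22 (limma adjusted p = 0.34). Of 23 apoptosis regulators 3 lay above and 2 below (7 above without luciferase replicate 1, and 5 without replicate 2 or combined knockdown replicate 1), with BCL2L1 at 0.68 ± 0.16 and CYCS at -0.45 ± 0.16. Of 16 genes of RNA interference and microRNA processing 4 lay below and 2 above (4 above without H3.Y replicate 2 or luciferase replicate 2), with LIN28B at -0.69 ± 0.16 and TSN at -0.60 ± 0.15. Of 7 14-3-3 genes YWHAQ lay below (-0.65 ± 0.12), and YWHAH, at -1.03 ± 0.13, overlapped. Of 14 housekeeping genes 2 lay below and 2 above, with a median of -0.06 (5 below without luciferase replicate 1, and 4 without replicate 2, H3.Y replicate 1 or combined knockdown replicate 1), and TFRC and HPRT1 gave -0.89 and -0.46 with overlapping arrays.

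The difference between the knockdown means, with the spread estimated from all 6 arrays, passed in limma for 1554 probe sets (4.67%), 914 with the combined knockdown higher (2.74%) and 640 with it lower (1.92%). Among members above luciferase, the combined knockdown was the higher one for 57 and the lower one for 22 (2.69%). Among members below, these numbers were 44 and 86 (4.19%). The rule bounds this difference, since both knockdowns must lie on the same side, so these shares are not read against the background. The median size of the difference was 0.14 above and 0.16 below, and 0.19 over all probe sets. The number of calls between the knockdowns fell to 12 without combined knockdown replicate 1 and 45 without replicate 2, to 448 without either luciferase array, and to 496 without H3.Y replicate 1.

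**Figure D4:**
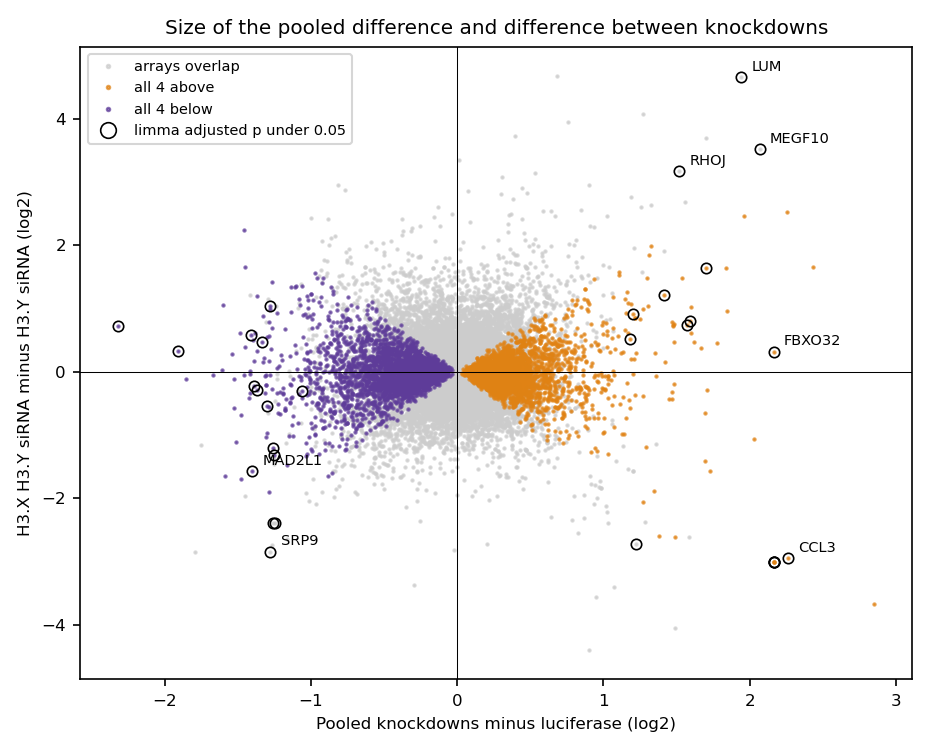
Each point is 1 probe set, with the pooled difference from luciferase on the x axis and the difference between the knockdowns on the y axis, both in log2. Members above (orange) and below (purple) form a wedge that the rule sets, and circles mark the 30 probe sets called in limma, 7 of them in grey because their arrays overlap, such as LUM (4.65 between the knockdowns) and SRP9 (-2.84).

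The 7 called probe sets outside the rule were LUM, SRP9, RHOJ, MEGF10 and 3 without a single symbol. RHOJ, a small GTPase, and MEGF10, an engulfment receptor, were picked out after their values were seen. RHOJ lay at 4.60 and 4.71 in luciferase cells, 4.55 and 4.61 after H3.Y siRNA and 7.87 and 7.65 in the combined knockdown. MEGF10 lay at 5.07 and 4.84, then 5.06 and 5.47, then 8.61 and 8.95. In these 4 named genes the H3.Y mean lay between -0.39 and 0.31 from the luciferase mean, and the combined knockdown carried the pooled difference.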

How the data were processed

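Total RNA of 6 samples was hybridised to Affymetrix arrays. The values used are those the authors deposited as log2 expression per probe set; the log base was taken from their range (0.687 to 14.0), and the submitters' processing notes name the package oligo. Background correction and probe summarisation: not given in the sources used here. Array signal has no read depth; the number of arrays limits the precision.

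Of 33297 probe sets, 19460 had 1 gene symbol, 1754 several and 12083 none; 19429 symbols were updated by Entrez identifier. No normalization was added. limma 3.58.1 (R 4.3.3) fitted 3 group means to all 6 arrays, with eBayes (3 residual and 3.43 prior degrees of freedom). The pooled difference was the mean of both knockdown means minus the luciferase mean, and the difference between knockdowns was the combined minus the H3.Y mean. p-values were Benjamini-Hochberg adjusted over all probe sets, with a threshold of 0.05. Where a gene had several probe sets, gene lists used the one with the highest mean. In simulated data with independent normal noise per array, 200 of 33297 probe sets were shifted equally on all 4 knockdown arrays. There the pooled test recovered 40.9% of changes of log2 1 and 82.7% of log2 2, and 3.77% of calls were false. The simulation held no difference between the knockdowns and no correlation of same-numbered arrays, so these shares need not hold for the measured arrays.

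Named genes were called probe sets on one side with the largest changes (up to 12 each way), the 5 widest gaps each way, the up to 4 called or else 2 uncalled members with the smallest p per list, called genes most and least alike between knockdowns, and those at the rule's edge. Members and lists were chosen with earlier results of these data known. Alternatives were other groupings, normalizations, filters, a variance trend, the replicate block and leaving out each array. Deviations of same-numbered arrays from their group means correlated at 0.22, 0.28 and 0.12 in the pairs of groups; the labels tie the numbers to no shared batch, so this pairing is a hint from the data.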

Additional observations from a re-analysis of the deposited data

Results flagged for a closer look

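For 30 of the named genes the knockdowns differed in a limma test of the difference itself (adjusted p under 0.05, combined knockdown minus H3.Y siRNA, log2). The difference was negative for CCL3 (-2.95), SRP9 (-2.84), YWHAH (-1.92), MAD2L1 (-1.57), GINS4 (-1.23), SLC16A7 (-1.20), NDUFB6 (-1.11), MRPL42 (-1.11), HSPE1 (-1.06), CHAF1B (-1.01), BNIP3 (-0.77), RPS24 (-0.74), SSRP1 (-0.72) and RRM1 (-0.70). It was positive for TGFBR3 (0.79), PTCHD4 (0.92), GBP2 (0.97), PSMA5 (1.01), TRIM22 (1.18), GULP1 (1.22), PLK2 (1.48), TFRC (1.55), INHBA (1.64), COPS2 (1.75), FN1 (1.91), COL1A1 (2.10), EPCAM (2.46), ITGB3 (2.53), TNFRSF11B (4.08) and LUM (4.65). For these genes the pooled difference is a mean of unequal values. The second probe sets of PTCHD4, GBP2 and SSRP1 did not pass this test (0.15, 0.46 and -0.20, limma adjusted p = 0.72, 0.34 and 0.49).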

How the results depend on the processing

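Pooled limma calls, 15 higher and 15 lower on all 6 arrays, moved with most settings. They were 0 and 0 with 2 groups, with median centring (lowest adjusted p 0.05; 4306 at an unadjusted p under 0.05) and with the replicate number as a block (lowest adjusted p 0.0576; 5185 unadjusted). They were 65 and 129 with an intensity trend, 196 and 351 without dim probe sets, and 271 and 409 with 1 probe set per gene. Without 1 array they ranged from 0 to 111 higher and 0 to 126 lower. Probe sets above were 1847 with 1 probe set per gene and 1757 without dim ones, and 1984 lay below with 1 per gene. Without 1 array, 3703 to 7698 lay above and 3774 to 6487 below. Calls between the knockdowns, 1554 on all arrays, were 2629 with 1 probe set per gene, 2540 without dim ones and 12 to 1641 without 1 array. No named gene changed direction in any setting run. The 15 called probe sets of named genes lost their call with 2 groups, centring, the block and 5 of 6 left-out arrays, and the replicate block changed no other call of a named gene. Other settings added calls among the named probe sets that were uncalled in the main fit. These were 41 of the 73 tested with 1 probe set per gene, 36 of 69 without dim probe sets and 17 of 77 with an intensity trend. The causes were not tested.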

Other observations

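IGKC, MYO15B and WNK1 had probe sets on opposite sides of luciferase. One WNK1 probe set lay above, at log2 0.87 ± 0.17, and another below, at -0.31 ± 0.12 (limma adjusted p = 0.11 and 0.35). MYO15B had one above, at 0.19 ± 0.11, and another below, at -0.37 ± 0.12. The files do not say which transcripts each probe set reads.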
